A study of Mus musculus with 6 samples.

Results

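The interleukin-1 family was followed on microarrays of mouse leukaemia-model cells given an inhibitor of G9a. Of 9 genes named for this group, 4 ligands (Il1a, Il1b, Il18 and Il33), the receptor antagonist Il1rn and 4 receptor genes (Il1r1, Il1r2, Il1rap and Il1rl1), 7 were matched to a probe set that the annotation gives to 1 gene alone. Each of the 7 has 1 such probe set, among 19937 genes measured in the same way. The annotation used here names no probe set for Il1r1 or Il1rl1, which were therefore not analysed here. Members were matched by gene symbol and not by any measured value, but the group was chosen with earlier results of these data known.

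The cells were mouse haematopoietic stem and progenitor cells carrying HoxA9 and Meis1, a pair of homeobox genes that together transform such cells. All 6 arrays are of these transformed cells, cultured in serum-containing medium with interleukin-3, interleukin-6 and SCF (stem cell factor), so both groups share the transgenes and the cytokines. The DMSO group (3 arrays) received the solvent and the UNC0638 group (3 arrays) received UNC0638, an inhibitor of the histone methyltransferases G9a and GLP, each for 5 days. The labels used here give no dose, no vector, and no statement on clones or separate cultures, and the spread behind each p-value is that of these arrays and may be technical. Values are the authors' processed intensities on a linear scale, given for each group in the order of replicates 1 to 3. Differences are UNC0638 minus DMSO of log2(intensity + 16), and a gene is called changed below an adjusted p of 0.05 in limma. In these mixed-cell measurements a larger number of cells expressing a gene and more RNA per cell cannot be told apart.

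Interleukin-1 alpha and beta are alarm cytokines that bind the same signalling receptor, which recruits the accessory protein encoded by Il1rap and turns on NF-kB through Myd88 and the Irak kinases. The antagonist encoded by Il1rn occupies that receptor without signalling, and the receptor encoded by Il1r2 is a decoy that binds ligand but lacks a signalling domain. Interleukin-1 beta and interleukin-18 are made as precursors that caspase-1 cuts within inflammasomes. In myeloid cells the family drives inflammation and emergency production of granulocytes and monocytes.

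Of the 7 measured members, Il1rn rose and no other member passed the threshold, against 0.672% of all genes called in either direction, 0.371% upward and 0.301% downward. The median difference of the 7 was 0.26, which is the value of Il1b, and that of all genes was 0.01. Without DMSO 2 Il1b was at 0.010 and the median of all genes at 0.016, so the higher member median rested on that array. At an unadjusted limma p under 0.05 there was 1 member, again Il1rn, against 12.7% of all genes. The ligands Il1a, Il1b and Il18 were scattered on the DMSO arrays, and both receptor genes lay slightly lower with UNC0638 without passing the test.

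The upstream sequences of the antagonist gene and of 3 ligand genes are shown because Il1rn was called and the agonists, which lie on the same chromosome or share its pathway, were not. Each is the 250 bases before an annotated transcription start in RefSeq (build GRCm38.p6), written 5′ to 3′ along the gene's strand. Il1rn has 3 annotated starts. Its first window is chr2:24336610-24336859 and its second chr2:24345041-24345290, both on the plus strand, and the window of the third overlaps the second. The windows of Il1a at chr2:129309973-129310222 and Il1b at chr2:129371140-129371389 lie on the minus strand of the same chromosome, and that of Il18 is chr9:50554450-50554699 on the plus strand. Capitals mark matches to the motifs searched.
Il1rn start 1: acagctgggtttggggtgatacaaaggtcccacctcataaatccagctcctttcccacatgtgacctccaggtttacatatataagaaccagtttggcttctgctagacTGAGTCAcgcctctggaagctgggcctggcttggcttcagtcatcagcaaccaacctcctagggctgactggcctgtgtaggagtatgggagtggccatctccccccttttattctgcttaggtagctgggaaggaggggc
Il1rn start 2: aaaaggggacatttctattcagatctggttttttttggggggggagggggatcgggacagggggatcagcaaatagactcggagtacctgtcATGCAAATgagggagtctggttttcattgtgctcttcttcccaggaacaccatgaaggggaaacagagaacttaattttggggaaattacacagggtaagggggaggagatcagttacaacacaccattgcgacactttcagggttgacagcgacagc
Il1a: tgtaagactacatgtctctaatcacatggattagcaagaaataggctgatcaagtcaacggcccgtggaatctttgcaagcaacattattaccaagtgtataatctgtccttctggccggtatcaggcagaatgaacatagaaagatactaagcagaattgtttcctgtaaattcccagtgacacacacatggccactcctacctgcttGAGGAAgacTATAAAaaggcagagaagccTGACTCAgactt
Il1b: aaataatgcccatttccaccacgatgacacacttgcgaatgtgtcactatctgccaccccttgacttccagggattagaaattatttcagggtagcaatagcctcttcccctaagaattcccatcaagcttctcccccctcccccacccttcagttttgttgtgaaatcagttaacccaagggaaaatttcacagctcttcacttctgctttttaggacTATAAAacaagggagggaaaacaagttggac
Il18: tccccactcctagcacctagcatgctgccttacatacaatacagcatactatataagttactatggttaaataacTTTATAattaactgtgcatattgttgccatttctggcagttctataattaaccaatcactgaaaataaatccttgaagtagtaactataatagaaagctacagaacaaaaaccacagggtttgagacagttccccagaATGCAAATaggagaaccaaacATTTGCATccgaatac

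The motifs were searched on both strands in all 32851 such windows. The octamer ATGCAAAT was found in 1.60% of them. Of the 7 members, some with several windows, 3 held it in any window, a count per gene not comparable with that share of windows. The octamer lay at 2 places in the window of Il18, at the second start of Il33, and at the second and the third start of Il1rn. The windows of these Il1rn starts overlap, and both hold the same match. The AP-1 motif TGANTCA, held by 6.75% of windows, was found 141 to 135 bases before the first start of Il1rn and 12 to 6 bases before that of Il1a. The TATA motif TATAAA, held by 12.4%, was found 32 to 27 bases before the start of Il1a and 31 to 26 before that of Il1b, the place usual for a TATA box, and 29 to 24 bases before the second start of Il33. It was also found farther out, 203 to 198 bases before the first start of Il33 and, on the minus strand, 175 to 170 before that of Il18. The PU.1 core GAGGAA (23.3% of windows) was found in Il1a alone among the members. The C/EBP motif TTGCNNAA (9.56%) was found at the second start of Il33, where it overlaps the octamer, and the interferon-response motif TTTCNNTTT (9.37%) at the third start of Il1rn. No match to the 10-base NF-kB consensus, which 7.25% of windows hold, was found in these windows of the members. The AP-1, octamer and TATA motifs were chosen after the sequences had been read. A match describes letters and is not a measured site.

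The arrays of each group lay close together for Il1rn (coefficient of variation 5.31% in DMSO and 7.26% in UNC0638). On its probe set, 10469816, intensity was 289, 271 and 261 in DMSO and 410.3, 405 and 461 in UNC0638. The groups did not overlap, and the lowest UNC0638 array stood well above the highest DMSO array. The mean went from 274 ± 14.5 to 425 ± 30.9 (SD, n = 3 each), a log2 difference of 0.61 (SE 0.086, 95% interval 0.41 to 0.80, adjusted p = 0.0262 by limma), or 1.52-fold on the scale with the pseudocount (interval 1.33 to 1.74). The size was steady across processing, from 0.53 to 0.65 over 16 alternatives. The call was less steady: it was lost without each of the 6 arrays in turn, when the adjusted p lay between 0.0528 and 0.0946.

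**Figure D1:**
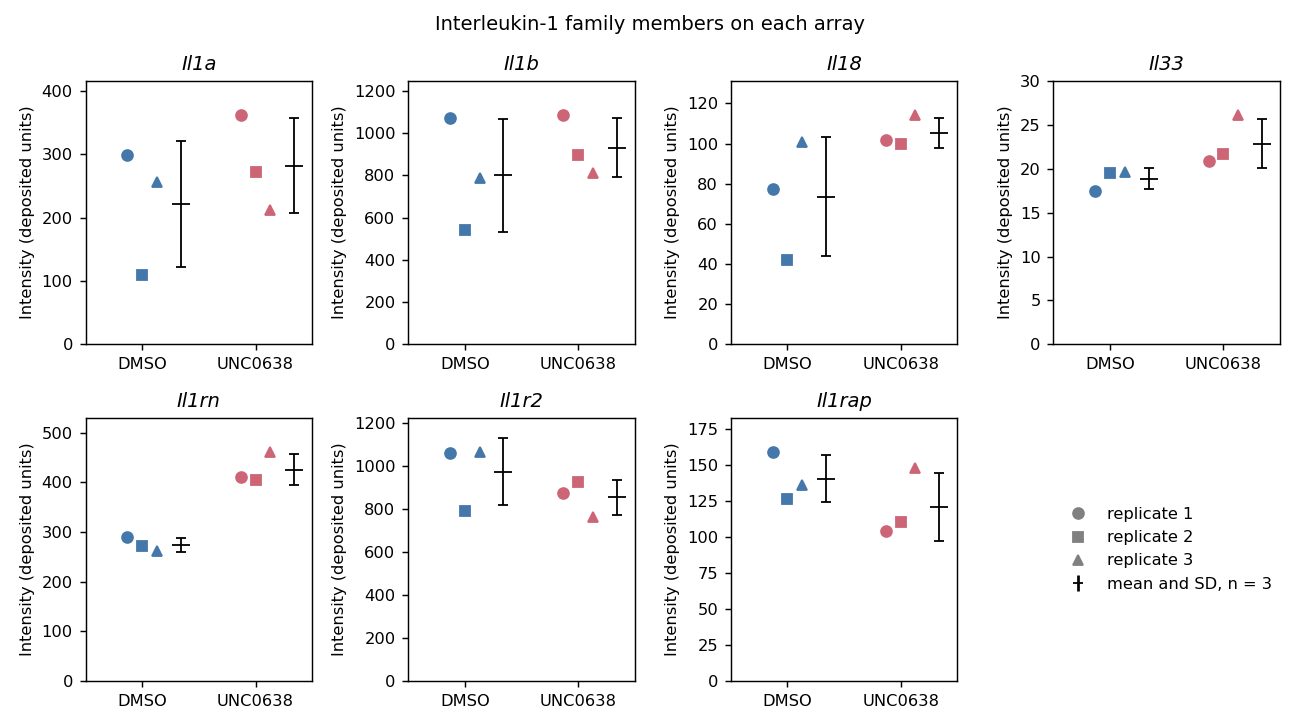
Intensity of the 7 measured members on each array (vertical axes from 0, deposited units), with points by replicate number and bars for the mean and SD of 3 arrays. Il1rn separates the groups (261 to 289 against 405 to 461), while Il1a, Il1b and Il18 have their lowest value on DMSO 2.

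The agonist ligands interleukin-1 alpha and beta were not called. Il1a, which encodes interleukin-1 alpha, had on its probe set 10487588 intensities of 299, 110.0 and 257 in DMSO and 362, 272 and 213 in UNC0638. The UNC0638 values straddled those of DMSO 1 and 3, and DMSO 2 lay far below the rest. The log2 difference was 0.40 (SE 0.32, 95% interval -0.34 to 1.14, adjusted p = 0.696 by limma), an interval that runs from a fall to more than a doubling. Without DMSO 2 the difference was -0.0055, so its direction rested on that array, and without DMSO 1 it was 0.65. Il1b (probe set 10487597), which encodes the precursor of interleukin-1 beta, was at 1073, 540.3 and 786 in DMSO and at 1085, 898 and 813 in UNC0638. Again DMSO 2 was the lowest array and the groups overlapped. Its difference was 0.26 (SE 0.22, interval -0.24 to 0.76, adjusted p = 0.716) with all arrays, 0.010 without DMSO 2 and 0.49 without DMSO 1.

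Il18 (probe set 10585194), which encodes the precursor of an interferon-gamma-inducing cytokine, had the next largest difference after Il1rn among the members. It was at 77.4, 42.0 and 101 in DMSO and at 102, 99.8 and 114 in UNC0638. The UNC0638 arrays were close to each other, and DMSO 3 lay among them. The difference was 0.50 (SE 0.22, interval -0.0052 to 1.00, unadjusted p = 0.0519, adjusted p = 0.40 by limma), and 0.21 without DMSO 2. Il33 (probe set 10462442), a nuclear alarmin of stromal and barrier cells, was dim. Its values were 17.5, 19.6 and 19.6 in DMSO and 20.9, 21.7 and 26.1 in UNC0638, below the array's own lower quartile on 5 of 6 arrays. Its groups did not overlap, but the difference was 0.15 (SE 0.084, interval -0.037 to 0.35, adjusted p = 0.519), and the pseudocount shrinks differences at this level. Among the 7, Il1rn and Il33 were the 2 whose UNC0638 arrays all lay above all DMSO arrays, which held for 9.59% of all genes. No member had the reverse order, against 7.4% of genes.

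DMSO 2 was the lowest of the DMSO arrays for 5 of the 7 members (Il1a, Il1b, Il18, Il1r2 and Il1rap), and it was the lowest for 31.6% of all genes. The highest DMSO value exceeded the lowest 2.72-fold for Il1a, 2.40-fold for Il18 and 1.99-fold for Il1b. For Il1rn that ratio was 1.11. On the UNC0638 arrays the ratios were 1.70 for Il1a, 1.14 for Il18, 1.33 for Il1b and 1.14 for Il1rn. Summed markers of 5 of the 10 cell type lists were also lowest of the DMSO group on DMSO 2: monocyte and macrophage (9532, against 11881 and 11924), neutrophil, immature myeloid, mast cell and basophil, and epithelial. Their part in these ligand values was not tested.

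**Figure D2:**
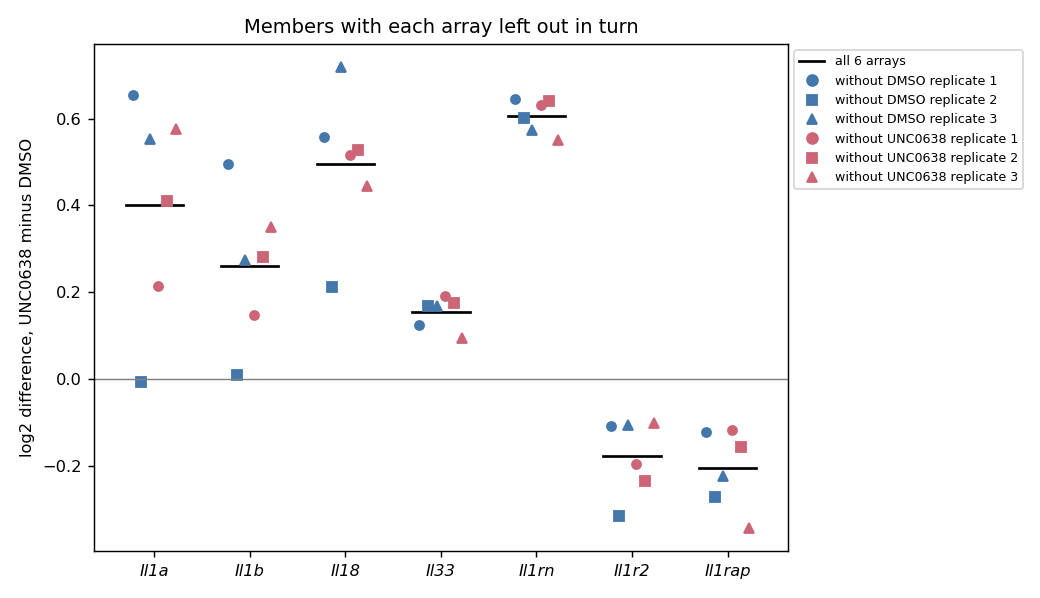
Difference of log2(intensity + 16), UNC0638 minus DMSO, for each member with all 6 arrays (line) and with each array left out (symbols). Il1rn keeps values of 0.55 to 0.65, while Il1a goes to -0.0055 and Il1b to 0.010 without DMSO 2.

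The receptor genes that could be measured did not pass the test. Il1r2 (probe set 10345752), the decoy receptor, was at 1063, 794 and 1067 in DMSO and at 876, 925 and 766 in UNC0638. The UNC0638 values lay around the lowest DMSO value and below the others. The difference was -0.18 (SE 0.13, 95% interval -0.47 to 0.12, adjusted p = 0.663 by limma) and ran from -0.31 without DMSO 2 to -0.0999 without UNC0638 3. Il1rap (probe set 10434845), the accessory chain shared by the receptors for interleukin-1, interleukin-33 and interleukin-36, was at 159, 126 and 136 in DMSO and at 104, 110.5 and 148 in UNC0638. UNC0638 3 lay within the DMSO range and the other UNC0638 arrays below it. The difference was -0.20 (SE 0.13, interval -0.51 to 0.099, adjusted p = 0.611) and ran from -0.34 without UNC0638 3 to -0.12 without UNC0638 1. Both intervals leave out a doubling or a halving.

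To set the antagonist against the agonists, the log2 value of each agonist was subtracted from that of Il1rn on the same array, which shows unequal change and not relative amounts. For Il1b this gave -1.83, -0.96 and -1.54 in DMSO and -1.37, -1.12 and -0.80 in UNC0638. The mean was higher by 0.35 with UNC0638, the groups overlapped, and the exact permutation test gave p = 0.3 (two-sided). For Il1a the values were -0.043, 1.19 and 0.019 in DMSO and 0.17, 0.55 and 1.06 in UNC0638, with a difference of 0.21 and p = 0.6 by the same exact test. With 3 arrays against 3 that test cannot go below 0.1. That Il1rn passed and the agonists did not is thus not shown to be a difference between them.

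**Figure D3:**
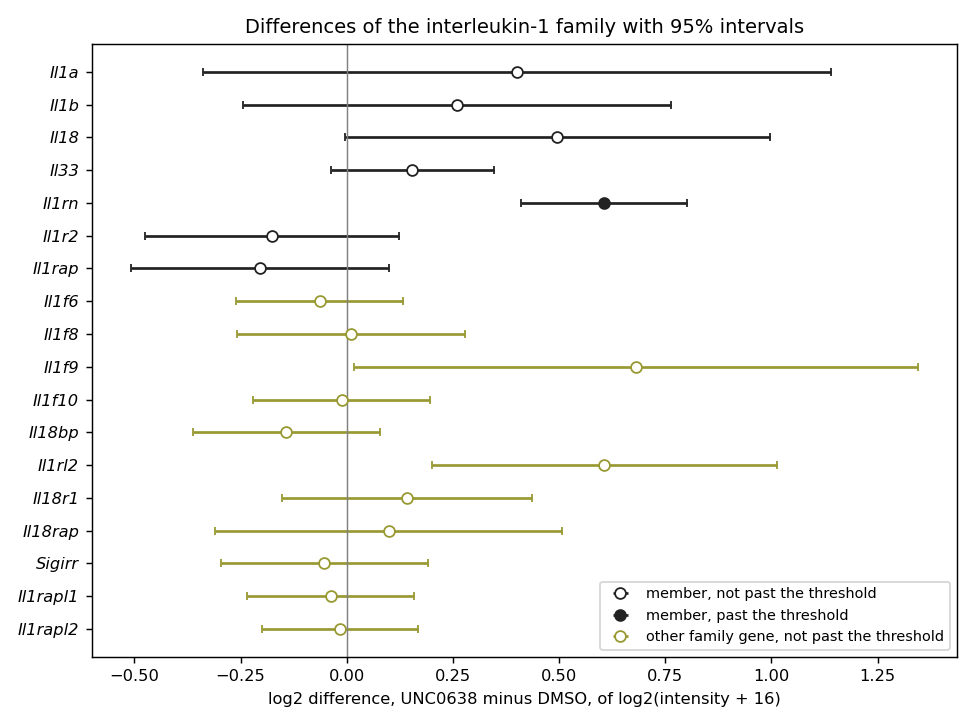
Log2 differences with their 95% limma intervals (horizontal bars) for the 7 members (black) and 11 other genes of the family (olive), filled where the adjusted p is below 0.05. Il1rn at 0.61 is the filled point, and Il1a and Il1f9 have the widest intervals.

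The rest of the family was read from lists of other ligands and binding proteins and of other receptors, and 0 of 5 and 0 of 6 measured genes were called by limma (1 of each at an unadjusted p under 0.05). Their median differences were -0.01 and 0.04. Il1f9, the gene of the agonist interleukin-36 gamma, was at 298, 114 and 199.9 in DMSO and at 268, 407 and 286 in UNC0638. DMSO 2 was again the lowest and DMSO 1 lay among the UNC0638 arrays (difference 0.68, SE 0.29, adjusted p = 0.377), and the difference was 0.35 without DMSO 2 and 0.98 without DMSO 1. Il1rl2, the receptor for interleukin-36, was at 65.6, 72.1 and 88.6 in DMSO and at 95.5, 114 and 168 in UNC0638. The groups did not overlap, yet the UNC0638 arrays differed widely and the gene missed the threshold (0.61, SE 0.18, adjusted p = 0.194). The genes of the soluble interleukin-18 binding protein, Il18bp (-0.14, adjusted p = 0.633), and of the inhibitory receptor Sigirr (-0.053, adjusted p = 0.911) were not called. The interleukin-18 receptor chains Il18r1 (0.14) and Il18rap (0.099) were not called either. Il1f8, Il1f10, Il1rapl1 and Il1rapl2 lay below the lower quartile on 6 of 6 arrays.

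Genes that act with the family were read from 3 further lists, of ligand processing and release, of receptor signalling to NF-kB, and of NF-kB feedback and response genes. Over the 5 pathway lists 2 of 86 measured genes rose and 2 fell, or 4.65% called against 0.672% of all genes. The lists were drawn up with earlier results of these data known, so that share is a description. In ligand processing and release 1 of 23 rose, with 8 at an unadjusted p under 0.05, all 8 of them upward, against 12.7% of all genes at that p in either direction, and the median difference was 0.13.

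The gene called there was Nlrp1a, which encodes an inflammasome sensor. It was at 86.0, 80.7 and 65.2 in DMSO and at 140.3, 116 and 142 in UNC0638. The groups were well apart (log2 difference 0.67, SE 0.11, adjusted p = 0.0466 by limma). The call was lost in 11 of 16 alternatives, without each array in turn among them, and the neighbouring copy Nlrp1b (0.38, adjusted p = 0.0852) may share signal with it. The sensors Nlrp3 (0.38, adjusted p = 0.132) and Mefv (0.59, adjusted p = 0.11) had groups that did not overlap and were not called. Casp1, the protease that cuts both precursors, was at 521 ± 32.1 and 575 ± 87.3 (SD, n = 3 each), with a difference of 0.13 (adjusted p = 0.732). The adaptor gene Pycard was at -0.23 (adjusted p = 0.50), and the pore-forming Gsdmd at -0.0079 (adjusted p = 0.992).

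In receptor signalling to NF-kB 0 of 23 genes were called by limma, 2 lay at an unadjusted p under 0.05, both upward, and the median difference was 0.07. The largest difference was that of Rel, an NF-kB subunit of blood cells (537 ± 63.9 to 674 ± 55.3, SD, n = 3 each, 0.32, adjusted p = 0.245). The adaptor Myd88 was at 0.11 (adjusted p = 0.794), the kinase gene Irak1 at -0.20 (adjusted p = 0.407) and the inhibitory Irak3 at 0.17 (adjusted p = 0.557).

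Among NF-kB feedback and response genes 1 of 29 rose and 2 fell, and the median difference was 0.00. Vcam1, an adhesion molecule, rose from 109, 141 and 159.6 in DMSO to 327, 317 and 333 in UNC0638 (a log2 change of 1.18, SE 0.12, adjusted p = 0.00886 by limma). Ptgs2, the inducible cyclooxygenase, fell from 968, 601 and 861 to 364, 337 and 327 (-1.18, SE 0.16, adjusted p = 0.0244). Mmp13, a collagenase, fell from 398, 274 and 321 to 135, 117 and 151 (-1.20, SE 0.14, adjusted p = 0.0128). All 3 are induced by interleukin-1 in other cells, and they went in opposite directions here. The feedback inhibitor Nfkbia (-0.046, adjusted p = 0.928) and the response genes Tnf (0.19, adjusted p = 0.642), Il6 (-0.38, adjusted p = 0.517) and Cxcl2 (0.15, adjusted p = 0.859) were not called.

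**Figure D4:**
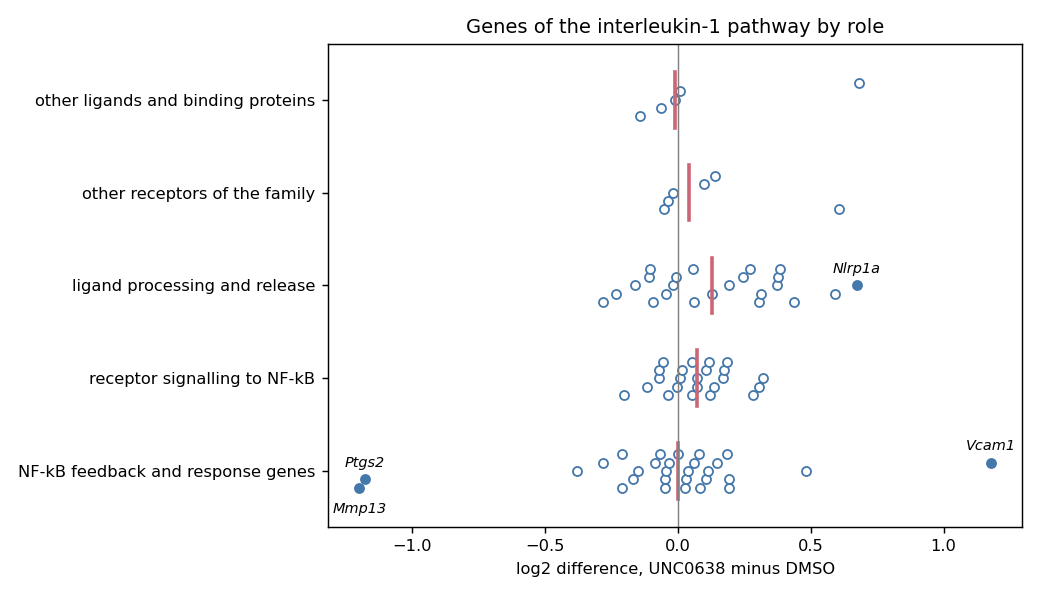
Log2 differences (horizontal axis) of the 86 measured pathway genes in 5 lists by role, filled and named where the adjusted p is below 0.05, with the list median as a red line. The named points are Nlrp1a and Vcam1 to the right of 0 and Ptgs2 and Mmp13 to the left.

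The nearest measured gene on each side of a member in the reference gene order was also read. Unmeasured genes in between were passed over, so some of these neighbours are not directly adjacent. Of 12 such neighbours that are not members 0 were called by limma, against 0.672% of all genes. At an unadjusted p under 0.05 lay 2 of the 12, against 12.7% of all genes, a count near that share. They were Map4k4 (0.35, adjusted p = 0.129) and Il1rl2, on either side of Il1r2 with 1 and 2 unmeasured genes between. The difference of Il1r2 itself was -0.18. The neighbours beside Il1rn were Il1f10 (17.7 ± 3.32 in DMSO and 17.3 ± 0.50 in UNC0638, SD, n = 3 each) and Psd4 (272 ± 12.6 and 249 ± 23.5), with differences of -0.01 and -0.13. The other neighbours, Ckap2l beside Il1a, Il1bos beside Il1b, Tmem207 and Gmnc beside Il1rap, Bco2 and Tex12 beside Il18, and Ranbp6 and Trpd52l3 beside Il33, lay between -0.13 and 0.053.

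The genes whose values over the 6 arrays were most like those of Il1rn were Afp (Pearson r = 0.995), Scin (0.995), Arg2 (0.994), Gtsf1l (0.994) and Itgax (0.993). These r are descriptions over 6 arrays in 2 groups, and 127 of 18708 genes with a symbol that is not a placeholder had an r over 0.95. Scin, an actin-severing protein gene (1.22, adjusted p = 0.0116), Arg2, a mitochondrial arginase gene (0.75, adjusted p = 0.0285), and the integrin gene Itgax (0.77, adjusted p = 0.0118) rose by limma, with calls lost in 2, 8 and 2 of 16 alternatives. Afp (0.44, adjusted p = 0.0703) and Gtsf1l (0.26, adjusted p = 0.182) were not called.

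Summed markers of several myeloid cell types were higher on all UNC0638 arrays than on all DMSO arrays, as was Il1rn, although most of their genes were not called. The same held for the low sum of B cell markers, so this order was not particular to the myeloid lists. Summed intensities of 12 neutrophil markers ran from 15090 to 15755 in DMSO and from 17044 to 20176 in UNC0638, with 3 of 12 genes risen (Cxcr2, Ltf and Fcnb). Those of 12 monocyte and macrophage markers ran from 9532 to 11924 and from 13890 to 14400, with 3 of 12 risen (Itgax, Mpeg1 and Gpnmb). Those of 10 mast cell and basophil markers ran from 9412 to 10988 and from 11214 to 12330, with 2 of 10 risen, the mast cell proteases Tpsb2 (0.69) and Cma1 (0.73). Of all genes 0.371% rose. At an unadjusted limma p under 0.05 were 7 neutrophil, 9 monocyte and macrophage and 5 mast cell and basophil markers, against 12.7% of all genes. Sums of 10 immature myeloid markers, 30896 to 32540 and 32592 to 35873, also did not overlap, with 0 of 10 called by limma. At an unadjusted p under 0.05 were 4 of them, Cd34, Cd33, Itgam and Lyz2. The list did not move as a whole: Mpo (0.068) and Kit (0.033) lay near 0, and Elane (-0.045), Prtn3 (-0.16) and Ctsg (-0.10) below it. In these lists 0 genes fell by limma, and the genes with lower values at an unadjusted p under 0.05 were Fcgr1 (-0.35) and Hdc (-0.42). These lists include cell types known to make Il1rn, and their part in its rise was not tested.

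**Figure D5:**
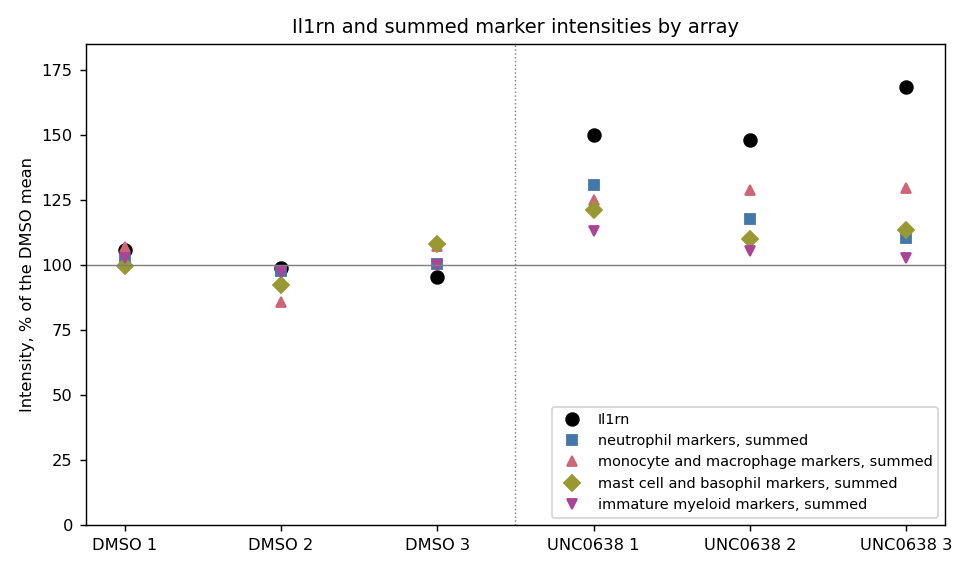
Intensity of Il1rn and summed intensities of 4 marker lists on each array, as a percentage of the DMSO mean (vertical axis from 0). All UNC0638 points of Il1rn and of each of the 4 sums lie above all DMSO points of the same series, narrowly so for the immature myeloid sum (32592 against 32540).

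Several immature myeloid markers were bright. The 10 were all measured, with Mpo at 6031 ± 191, Elane at 4770 ± 238 and Kit at 351 ± 7.66 in DMSO (SD, n = 3 each). Genes of other myeloid lists were bright too, such as Mmp8 at 4473.5 ± 426 and Cpa3 at 4232 ± 447 in DMSO. Sums of endothelial (101 to 112), T and NK cell (115 to 154) and epithelial (352 to 468) markers were low on all arrays. Sums of B cell markers were low too, at 126 to 130 in DMSO and 141 to 157 in UNC0638, and did not overlap. Those of erythroid and megakaryocyte markers, in which Pf4 is the brightest, were 900.3 to 1146 in DMSO and 686 to 887 in UNC0638, lower without overlap. Those of fibroblast and stromal markers, in which Thy1 is the brightest, were 3357 to 4085 and 3095 to 3803. In these lists no gene was called by limma. At an unadjusted p under 0.05 were Cd3g, Cd79b and Pdgfrb, upward, and Pf4, downward (-0.66), where 12.7% of all genes lay under that p. The stromal genes Dcn, Lum and Postn, the endothelial Tek and Emcn, the NK cell genes Ncr1 and Klrb1c and the B cell gene Ms4a1 lay below the lower quartile on 6 of 6 arrays.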

How the data were processed

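Gene expression was measured in 6 samples of transformed mouse cells, 3 per group, with biotin-labelled cRNA on a whole-transcript Affymetrix array. The deposited table holds 1 intensity per probe set and array on a linear scale (34760 probe sets). The authors' background correction, summarisation and scaling are, for lack of such a statement in the labels, unknown here and can shrink differences of dim genes. Medians per array were 50.4 to 52.5 in DMSO and 52.7 to 54.9 in UNC0638, and did not overlap. Probe sets with 1 gene symbol were kept (21640), and where a gene had several the brightest was used. Values were transformed as log2(intensity + 16), so that folds of dim genes are understated, and compared in limma 3.58.1 (R 4.3.3) on group alone with Benjamini-Hochberg adjustment over 19937 genes. The procedure was tested on simulated data.

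The members, lists and tests were chosen with earlier results of these data known. Named are all measured members, the called genes of each of 5 pathway lists or the largest difference where none was called, the measured neighbours of members, and the 5 genes most correlated with each called member, leaving out placeholder symbols. Genes named beyond these were chosen after their values were seen. Of 90 pathway genes 86 were measured, and of 81 marker genes in 10 lists 77. Alternatives were quantile normalization, median centring, leaving out the dimmest 40% of genes, the mean of probe sets, pseudocounts of 1 and 64, array weights, a threshold of 0.01, a prior with trend and robust fitting, a replicate block and each array left out. Sequences and gene order come from RefSeq tables of GRCm38.p6. Exact permutation tests used scipy 1.17.1 and figures matplotlib 3.10.9 in Python 3.11.15.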

Additional observations from a re-analysis of the deposited data

How the results depend on the processing

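Il1rn was above 0 in all 16 alternatives and past the threshold in 8 of them (adjusted p from 0.0161 to 0.0946 in limma, 0.0754 with the replicate block). The count of members called, 1, was 0 with the replicate block and 0 at the threshold of 0.01, and 0 without each array in turn (lowest 0, highest 0). The count of all genes called, 134, was 49 with a pseudocount of 64, 73 with the replicate block, 18 at the threshold of 0.01 and 10 to 69 with an array left out. That of pathway genes, 4, was 1 with a pseudocount of 64, 1 at the threshold of 0.01 and 0 to 3 with an array left out: 0 without UNC0638 1, 1 without UNC0638 2, 2 without UNC0638 3 and 2 without DMSO 3. Median centring gave 50 genes upward and 65 downward, against 74 and 60. Of the other named pathway calls, Ptgs2 was lost in 6 alternatives, Mmp13 in 4 and Vcam1 in 1, that without UNC0638 1. Il1a ranged from -0.0055 to 0.65 with an array left out, and Il1rn minus Il1a from -0.026 to 0.61, below 0 without DMSO 1 (-0.0095) and UNC0638 3 (-0.026). Il1rn minus Il1b ranged from 0.15 to 0.59. Neighbours near 0 changed sign: Il1bos was at -0.016 with quantile normalization, -0.023 with median centring and -0.00099 to 0.046 with an array left out, and Bco2 at -0.0086, -0.016 and -0.012 to 0.055. With an array left out, Il1f10 lay between -0.092 and 0.049, Tmem207 between -0.0069 and 0.15, Tex12 between -0.073 and 0.024, and Trpd52l3 between -0.093 and 0.037. Deviations from the group means of arrays with the same replicate number correlated at -0.066, 0.11 and 0.017 over genes, so the numbers give no sign of pairing. Leaving out the dimmest 40% of genes removed Il33 among the members. The number of arrays, and for Il33 the low signal, limits what could be called.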
